A study of Homo sapiens with 6 samples.

Results

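*GAS5* and 9 other noncoding transcripts that carry small nucleolar RNAs (snoRNAs) in their introns were followed in MRC5 lung fibroblasts, an established human line. The 10 genes were *GAS5*, *SNHG1*, *SNHG5*, *SNHG6*, *SNHG7*, *SNHG8*, *SNHG12*, *SNHG15*, *SNHG16* and *ZFAS1*, chosen by name as long noncoding snoRNA hosts. The choice was made with earlier results of these data known, so counts among the 10 do not come from a blind set. All 10 were found among the 58676 gene identifiers of the count table, and all 10 were among the 19072 genes with at least 10 counts over the 6 libraries. The fibroblasts had been kept for 24 h in conditioned medium (CM) of an alveolar epithelial type II (ATII) cell line that carries a transgene switched on by 4-hydroxytamoxifen (4-OHT). CM of control cells was used for 3 libraries (control ATII CM) and CM of 4-OHT-treated cells for the other 3 (4-OHT ATII CM). The inducible transgene was in the epithelial cells alone, and the fibroblasts of both groups were studied without added TGF-β. All libraries came from 1 fibroblast line and 1 inducible epithelial line, and the labels do not say whether replicates were separate cultures, so p values measure the spread between these libraries, which may be technical. A response to 4-OHT carried over in the medium cannot be told apart from a response to products of the epithelial cells.

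Library totals ranged from 17691849 to 26389449 counts on genes, and the 10 hosts together held from 0.0731% to 0.0764% of each. Replicate 2 of control ATII CM stood apart from the other controls, since its counts differed from replicates 1 and 3 with chi-square values per degree of freedom of 6.03 and 5.27, beside 2.12 between those 2 replicates. Without that library *SNHG12* and *SNHG1* still passed the edgeR test described further on (log2 fold changes -0.463 and -0.20, adjusted p = 0.0114 and 0.0365). Of the 10 fibroblast markers checked, all passed the count filter, with a summed level of 41100 to 44710 CPM (counts per 1000000, with library sizes normalized by TMM). Most of the sum was *COL1A1* and *COL1A2*, and 5 of the 10 were differentially expressed genes (DEGs) by the edgeR test described further on, *COL3A1*, *DCN*, *LUM* and *PDGFRA* higher and *VIM* lower in 4-OHT ATII CM. Of all genes tested, 5.72% were DEGs. Of 12 epithelial markers, 5 passed, none of them different between the groups by edgeR (0 at an unadjusted p below 0.05, and 0 with DESeq2), and *KRT5*, *SFTPA1* and *NKX2-1* had no count in any library. The summed level of the 12, most of it keratin 8 and 18, was 92.11 to 98.38 CPM in control ATII CM and 90.19 to 95.78 CPM in 4-OHT ATII CM.

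A snoRNA host is transcribed and spliced like a messenger RNA, and its snoRNAs are trimmed out of the excised introns. C/D snoRNAs guide the methylation of ribosomal RNA and H/ACA snoRNAs its pseudouridylation, so the introns serve ribosome production. In the hosts studied here the spliced exons encode no long protein. Several of them, *GAS5* first, begin with a cytosine and a run of pyrimidines (a 5′ terminal oligopyrimidine or TOP start), the signature of messenger RNAs of ribosomal proteins. Their spliced RNA is bound by ribosomes and removed by nonsense-mediated decay, a route that needs translation. *GAS5* got its name because it accumulates when cells stop growing, when translation of such RNAs is low, and its RNA can also bind the glucocorticoid receptor.

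The sequences around the transcript starts show how these genes are built. Each line gives the 50 bases before and the 30 bases from the most common start among the GENCODE release 44 transcripts of the gene, on GRCh38 and in the direction of transcription. Capitals mark the letters TATAA before the start, and every C followed by at least 4 pyrimidines (C or T) that begins within 15 bases of the start, both searched on the transcribed strand only.
GAS5, chr1:173867960-173868039, minus strand: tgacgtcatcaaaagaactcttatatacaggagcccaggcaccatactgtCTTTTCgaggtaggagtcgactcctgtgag
SNHG5, chr6:85678719-85678798, minus strand: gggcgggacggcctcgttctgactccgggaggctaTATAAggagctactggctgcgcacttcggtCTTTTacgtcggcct
ZFAS1, chr20:49278592-49278671, plus strand: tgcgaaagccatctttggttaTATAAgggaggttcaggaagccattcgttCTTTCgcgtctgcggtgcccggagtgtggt
SNHG16, chr17:76557716-76557795, plus strand: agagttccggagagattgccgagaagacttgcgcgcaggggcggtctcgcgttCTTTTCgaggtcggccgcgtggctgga
SNHG8, chr4:118278708-118278787, plus strand: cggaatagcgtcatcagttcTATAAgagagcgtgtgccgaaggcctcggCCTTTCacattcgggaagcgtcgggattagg
SNHG7, chr9:136728155-136728234, minus strand: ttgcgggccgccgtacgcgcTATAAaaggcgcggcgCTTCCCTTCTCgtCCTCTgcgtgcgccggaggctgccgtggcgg
SNHG12, chr1:28581844-28581923, minus strand: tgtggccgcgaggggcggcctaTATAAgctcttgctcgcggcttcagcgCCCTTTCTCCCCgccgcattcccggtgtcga
SNHG1, chr11:62855856-62855935, minus strand: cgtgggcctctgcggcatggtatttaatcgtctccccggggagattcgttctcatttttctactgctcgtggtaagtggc
SNHG15, chr7:44986639-44986718, minus strand: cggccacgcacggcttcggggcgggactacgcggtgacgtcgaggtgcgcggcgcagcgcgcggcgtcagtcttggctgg

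TATAA was found before the start of 5 of the 10 hosts, *SNHG5*, *SNHG7*, *SNHG8*, *SNHG12* and *ZFAS1*, and before the start of 3.69% of 18962 tested genes with a start in GENCODE. A pyrimidine run near the start was found in 8 of the 10, *SNHG6* among them, and in 41.4% of the same genes. *SNHG1* and *SNHG15* had neither TATAA before the start nor such a run within 15 bases of it. Annotated starts differ between transcripts of a gene. The start shown is that of 50 of 91 transcripts of *GAS5* and 61 of 89 of *SNHG5*, but of 25 of 80 of *SNHG1*, 4 of 19 of *SNHG12* and 2 of 14 of *SNHG15*, and in *SNHG5* the run lies 15 bases downstream of the most common one.

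RefSeq places 37 small RNA genes inside the 10 hosts. *GAS5* holds 11 of them, 10 of the C/D class. *SNHG1* holds 9, *SNHG12* holds 4, and the others hold 1 to 3. In *SNHG7*, *SNHG8*, *SNHG12* and *SNHG15* the H/ACA class is in the majority, and in the other 6 the C/D class. One snoRNA each of *GAS5*, *SNHG1* and *SNHG12* is shown as an example of what the introns carry, read from GRCh38 at the RefSeq positions on the strand of the host. Capitals mark the C box letters TGATGA and the D box letters CTGA in the C/D snoRNAs, and the ACA near the 3′ end in the H/ACA snoRNA.
SNORD44 of GAS5, chr1:173865968-173866028: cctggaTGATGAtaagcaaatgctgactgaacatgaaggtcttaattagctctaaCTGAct
SNORD25 of SNHG1, chr11:62855565-62855631: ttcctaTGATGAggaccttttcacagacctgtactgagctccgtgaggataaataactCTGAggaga
SNORA16A of SNHG12, chr1:28580920-28581053: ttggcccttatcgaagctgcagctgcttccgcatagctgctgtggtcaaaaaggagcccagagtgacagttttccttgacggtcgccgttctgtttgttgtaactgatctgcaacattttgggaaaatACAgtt

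**Figure D1:**
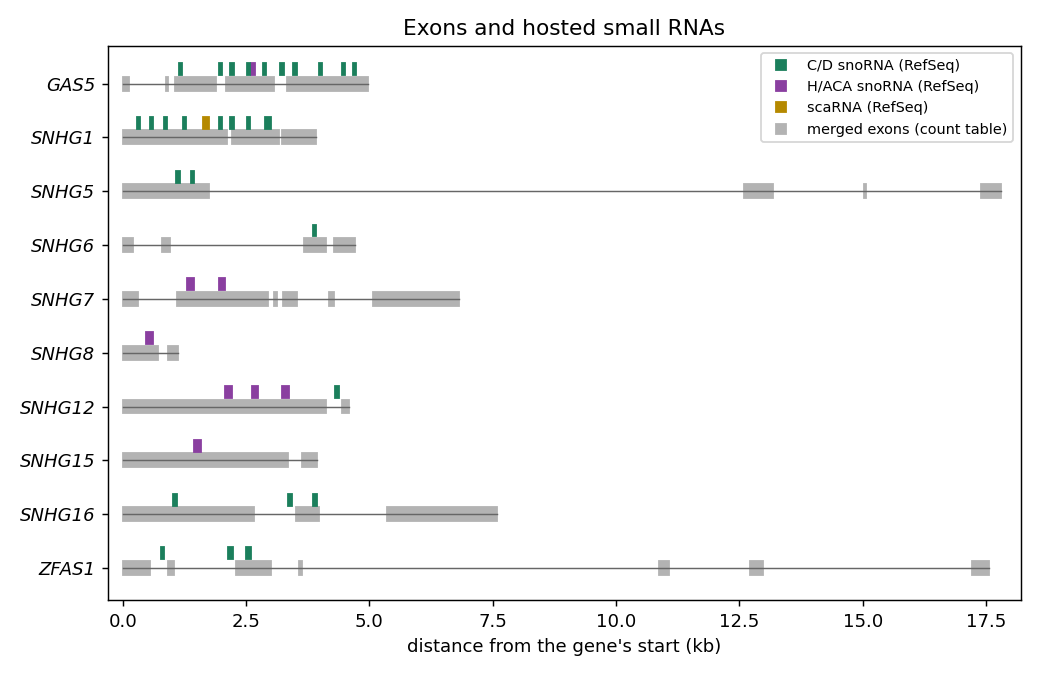
Exons and small RNAs of the 10 hosts against the distance from each gene's start in kb. Grey boxes are the merged exons of the count table and coloured boxes the RefSeq small RNAs, and most small RNAs lie over grey boxes, since the merged exons include transcripts that retain introns.

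The libraries were made from polyA RNA, and mature snoRNAs have no poly(A) tail. The count table lists 26 snoRNA genes inside the hosts, none of them in *GAS5*. Of these, 22 overlap the hosts' merged exons, and all 22 had no count in any library. Whether the use of polyA RNA or the handling of reads shared with host exons left them without counts was not tested. The 4 that lie outside them had 40 counts in all, beside 101127 counts of the 10 hosts. *SNORD99* in *SNHG12* (14 counts) and *SNORD12C* in *ZFAS1* (16 counts) were the ones with at least 10. The values that follow are of the host RNA, spliced or not, and not of the snoRNAs.

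Levels of the hosts were compared with each other per length, as CPM per kb of merged exons, over all 6 libraries. *SNHG5* was the most abundant, at 108.7 to 122.8 CPM per kb, and *GAS5* followed at 46.71 to 50.87. *SNHG8* (31.71 to 39.86) and *SNHG6* (29.76 to 33.54) overlapped in range. *ZFAS1* was at 15.65 to 18.47, *SNHG16* at 10.7 to 11.95, *SNHG1* at 7.556 to 9.164 and *SNHG7* at 6.55 to 7.217, with no overlap between neighbours in this order. *SNHG15* (1.638 to 2.242) and *SNHG12* (1.52 to 2.363) were lowest and overlapped. The mean level of *SNHG5* was 57.9 times that of *SNHG12*. Merged exons include retained introns, so the level of a host with long ones is understated.

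**Figure D2:**
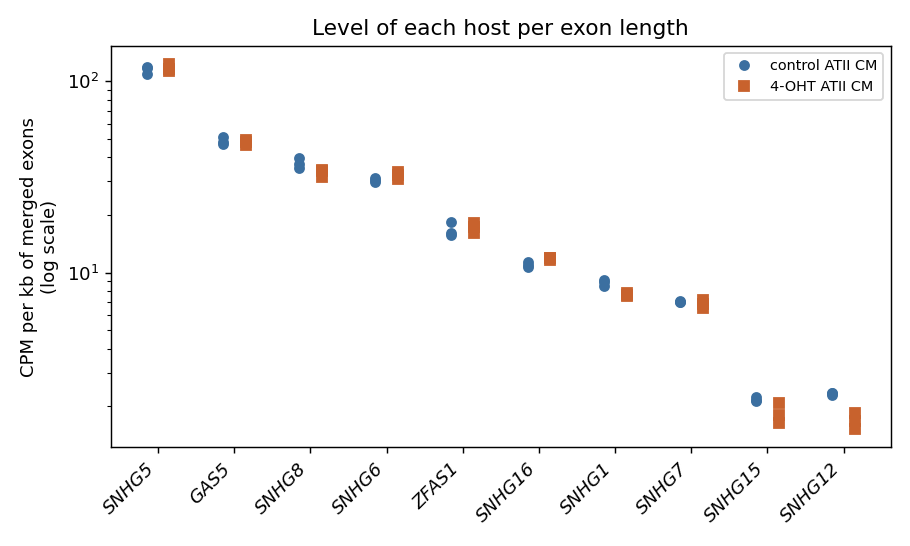
Level of each host in CPM per kb of merged exons on a log axis, with 1 point for each of the 3 libraries of control ATII CM (circles) and of 4-OHT ATII CM (squares). The hosts span from about 2 CPM per kb (*SNHG12*, *SNHG15*) to 116 CPM per kb (*SNHG5*).

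Counts of the groups were compared with edgeR's quasi-likelihood test over all 19072 genes, and genes with a Benjamini-Hochberg adjusted p below 0.05 are called DEGs. Of the 10 hosts, 2 were DEGs, *SNHG12* and *SNHG1*, both lower in 4-OHT ATII CM. Among all genes tested 5.72% were DEGs in either direction and 2.76% were lower DEGs, and among 3164 long noncoding RNA genes 0.822% were DEGs. These shares were not matched for abundance, so they give no measure of enrichment among the hosts. They include genes with as few as 10 counts over the 6 libraries, while the least counted host, *SNHG15*, had 977. The same holds for the shares of separated genes given below. The log2 fold changes of the 10 hosts (4-OHT ATII CM over control ATII CM) ran from -0.47 to 0.098 with a median of -0.031, beside a median of -0.0020 over all genes. In 5 of the 10 the groups were fully separated, with every value of 4-OHT ATII CM lower than the controls in 4 and higher in 1. Over all genes the groups were separated in 22.1%, and separated with lower values in 10.4%. The summed level of the 10 hosts, most of it *SNHG5* and *GAS5*, was 746.5 to 752.9 CPM in control ATII CM and 734.1 to 770.3 CPM in 4-OHT ATII CM. In a bulk culture, fewer cells that express a gene and less RNA per cell cannot be told apart.

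*SNHG12* (ENSG00000197989, chromosome 1, 28578538 to 28583132, minus strand) carries the H/ACA snoRNAs SNORA16A, SNORA44 and SNORA61 and the C/D snoRNA SNORD99. The control libraries held 209, 180 and 226 of its counts and the others 142, 196 and 187. Scaled to library size, the levels were 9.792, 10.08 and 9.973 CPM with control ATII CM against 6.486, 7.86 and 7.115 CPM with 4-OHT ATII CM. The controls lay close together, with an SD of 0.145 CPM, and every library of 4-OHT ATII CM lay below them. The level fell by 27.9%, with a 95% interval of -37.5% to -16.8% (log2 fold change -0.47, standard error 0.0971, edgeR adjusted p = 0.00798). *SNHG12* was a DEG in all 15 alternative analyses, which included leaving out each library in turn, with log2 fold changes from -0.55 to -0.41.

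*SNHG1* (ENSG00000255717, chromosome 11, 62851988 to 62855914, minus strand) is the host of the C/D snoRNAs SNORD22 and SNORD25 to SNORD31. Its level was 31.81, 33.6 and 34.42 CPM with control ATII CM against 29.46, 28.75 and 28.38 CPM with 4-OHT ATII CM. The groups did not overlap, and the gap between them was smaller than the spread among the controls. The level fell by 13.3%, with a 95% interval of -19.7% to -6.41% (log2 fold change -0.21, standard error 0.0519, edgeR adjusted p = 0.0280). With DESeq2 it missed the threshold (adjusted p = 0.0605). The call was also lost without control ATII CM replicate 3 (adjusted p = 0.127) and when replicate 1, 2 or 3 of 4-OHT ATII CM was left out (adjusted p = 0.0585, 0.0958 and 0.126). Over all 15 alternatives the log2 fold change stayed between -0.24 and -0.185, and the adjusted p ranged from 0.0151 to 0.127.

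*SNHG8*, *SNHG15* and *SNHG16* had groups that did not overlap but were not DEGs. *SNHG8* (ENSG00000269893, chromosome 4, 118278709 to 118279823, plus strand), with the single H/ACA snoRNA SNORA24, was at 34.16, 36.79 and 32.43 CPM with control ATII CM against 31.79, 29.27 and 31.27 CPM with 4-OHT ATII CM. The log2 fold change of *SNHG8* was -0.16 (95% interval -0.28 to -0.038, adjusted p = 0.136 from edgeR). *SNHG15* (ENSG00000232956, chromosome 7, 44983023 to 44986961, minus strand), with SNORA9, was at 7.777, 8.175 and 7.854 CPM against 7.582, 6.577 and 5.973 CPM (log2 fold change -0.25, 95% interval -0.48 to -0.014, adjusted p = 0.254 from edgeR). With 977 counts over all libraries it was the least counted of the hosts, and its interval was the widest. *SNHG16* (ENSG00000163597, chromosome 17, 76557766 to 76565348, plus strand), with 3 C/D snoRNAs of the SNORD1 family, was the one host with all values of 4-OHT ATII CM above the controls. It was at 57.39, 58.9 and 61.2 CPM with control ATII CM against 64.08, 62.48 and 63.58 CPM with 4-OHT ATII CM (log2 fold change 0.098, 95% interval 0.014 to 0.18, adjusted p = 0.194 from edgeR).

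The 2 most abundant hosts, *GAS5* and *SNHG5*, were measured with the most counts and had overlapping groups. *GAS5* (ENSG00000234741, chromosome 1, 173863900 to 173868882, minus strand) had 3719, 3060 and 4186 counts with control ATII CM against 3808, 4452 and 4458 with 4-OHT ATII CM. The levels were 174.2, 171.3 and 184.7 CPM against 173.9, 178.5 and 169.6 CPM. The highest value came from a control library and the lowest from 4-OHT ATII CM, with the other 4 interleaved. The change was -1.6%, with a 95% interval of -6.99% to 4.11% (adjusted p = 0.828 from edgeR), and it was not a DEG in any alternative. *SNHG5* (ENSG00000203875, chromosome 6, 85660950 to 85678748, minus strand), the host of SNORD50A and SNORD50B, was at 333.5, 327.7 and 305.0 CPM against 323.6, 344.7 and 318.6 CPM, and its lowest value was a control and its highest a library of 4-OHT ATII CM. Its change was 2.15%, with a 95% interval of -3.74% to 8.4% (adjusted p = 0.773 from edgeR). A change of either transcript as large as the one of *SNHG12* lies outside these intervals.

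*ZFAS1*, *SNHG6* and *SNHG7* also overlapped. *ZFAS1* (ENSG00000177410, chromosome 20, 49278178 to 49295738, plus strand), the host of 3 snoRNAs of the SNORD12 family, was at 36.31, 35.11 and 41.43 CPM with control ATII CM against 36.27, 38.98 and 40.79 CPM with 4-OHT ATII CM (log2 fold change 0.038, 95% interval -0.095 to 0.17). *SNHG6* (ENSG00000245910, chromosome 8, 66921684 to 66926398, minus strand), the host of SNORD87, was at 37.11, 38.19 and 38.83 CPM against 38.41, 41.83 and 40.29 CPM, a log2 fold change of 0.080 (95% interval -0.022 to 0.18). *SNHG7* (ENSG00000233016, chromosome 9, 136721366 to 136728184, minus strand), the host of SNORA17A and SNORA17B, was at 30.78, 30.68 and 30.62 CPM against 29.83, 31.36 and 28.46 CPM, a log2 fold change of -0.039 (95% interval -0.15 to 0.074). The 3 controls of *SNHG7* were nearly equal, and the libraries of 4-OHT ATII CM lay on both sides of them. With single libraries left out, the log2 fold change of *SNHG7* was lowest at -0.078 when 4-OHT ATII CM lacked replicate 2 and highest at -0.0067 when it lacked replicate 3. For *SNHG6* the values ran from 0.048 to 0.12, lowest without replicate 2 and highest without replicate 1 of the same group. None of these 3 hosts was a DEG in any alternative, and adjusted p values from edgeR were 0.828, 0.441 and 0.781.

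**Figure D3:**
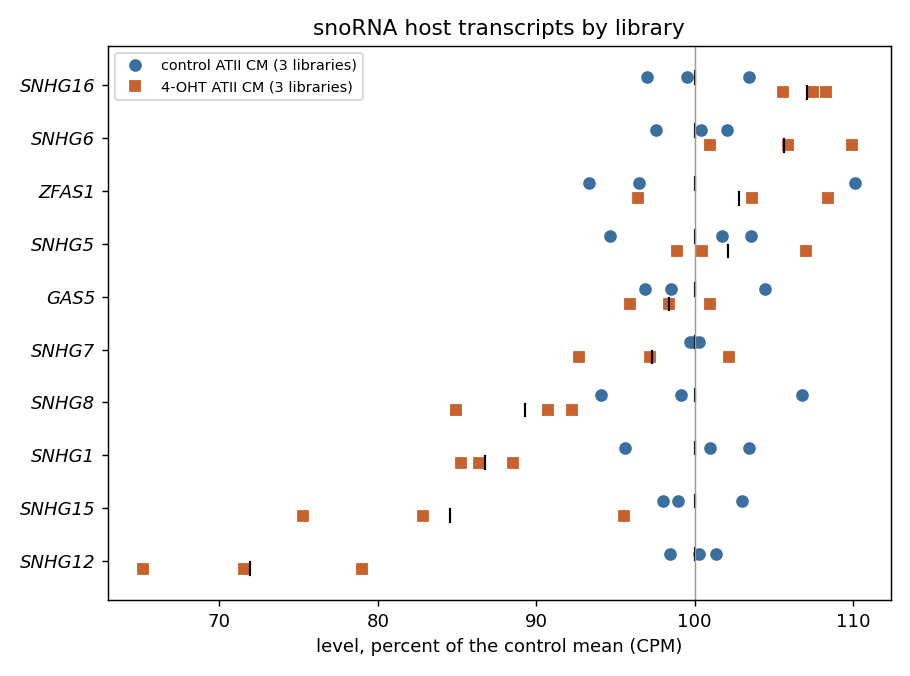
Level of each host in every library as a percentage of the mean CPM of control ATII CM, with black ticks at the group means (n = 3 libraries each). The squares of 4-OHT ATII CM lie left of all circles of control ATII CM for *SNHG12*, *SNHG15*, *SNHG1* and *SNHG8*, and right of them for *SNHG16*, while the ranges of both groups overlap for the other 5 hosts.

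Ratios within a library do not depend on its scaling. For every 1000 counts of *GAS5* there were 56.2, 58.82 and 53.99 counts of *SNHG12* with control ATII CM against 37.29, 44.03 and 41.95 with 4-OHT ATII CM. For *SNHG1* the numbers were 182.6, 196.1 and 186.3 against 169.4, 161.1 and 167.3. Both ratios were lower in every library of 4-OHT ATII CM. These pairs, and those with *TRNAU1AP* given further on, were chosen after their values were seen and were not tested. The same holds for a grouping by snoRNA class. The 4 hosts in which H/ACA snoRNAs are in the majority, *SNHG7*, *SNHG8*, *SNHG12* and *SNHG15*, had log2 fold changes from -0.47 to -0.039, and 5 of the 6 C/D hosts had values from -0.023 to 0.098, with *SNHG1* at -0.21 as the exception.

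Genes that share a start region or exons with a host were looked at because the use of strand in the counting is not stated. *SLC3A2*, which encodes the heavy chain of several amino acid transporters, starts 188 bases from *SNHG1* in the opposite direction. It was measured at 287.6 ± 12.02 CPM with control ATII CM against 278.3 ± 8.781 CPM with 4-OHT ATII CM (SD, n = 3 each), with a log2 fold change of -0.047 (adjusted p = 0.595 from edgeR). *TRNAU1AP*, for a protein that acts with the selenocysteine tRNA, lies antisense to *SNHG12*, shares 8 exon bases with it, and had a log2 fold change of 0.026 (adjusted p = 0.907). For every 1000 counts of *TRNAU1AP* there were 616.5, 606.1 and 609.2 counts of *SNHG12* with control ATII CM against 404.6, 452.7 and 435.9 with 4-OHT ATII CM. *ZNFX1*, an RNA helicase gene, overlaps 249 bases (11.1%) of the exons of *ZFAS1*. It was at 69.06 ± 3.588 CPM against 62.4 ± 2.434 CPM (SD, n = 3 each), with groups that did not overlap and a log2 fold change of -0.15 (adjusted p = 0.0719), while the value of *ZFAS1* was 0.038. *ZBTB37*, a zinc finger gene that starts 800 bases from *GAS5*, had a log2 fold change of -0.31 (adjusted p = 0.247), which was -0.12 without control ATII CM replicate 3. *DIPK1B* covers 25.2% of the exons of *SNHG7* and *MCMDC2* 29.3% of those of *SNHG6*, and both were low, at 2.242 and 0.6173 CPM in control ATII CM. *GAS5-AS1* had 29 counts, and ENSG00000267546, which starts 83 bases from *SNHG16*, had 19. ENSG00000284526, which overlaps *SNHG16*, had 9 counts and was too low to be tested. None of the 10 hosts had another copy in the assembly that covered at least 50% of its main transcript with at least 95% identity. Matches of lower identity elsewhere covered up to 75.4% of *ZFAS1* and 59.9% of *GAS5*, and how reads that fit several places were counted is not given in the sources used here.

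The wider family of noncoding hosts was followed through a list of 18 genes, of which 17 were tested. One of them, *SNHG3*, was a DEG, beside 5.72% of all genes. *SNHG3* (ENSG00000242125) was at 24.88, 23.85 and 28.02 CPM with control ATII CM against 18.18, 21.25 and 19.4 CPM with 4-OHT ATII CM (log2 fold change -0.39, standard error 0.0750, edgeR adjusted p = 0.00544), and it was a DEG in all 15 alternatives. In 4 of the 17 all values of 4-OHT ATII CM were lower and in none were all higher, beside 10.4% of all genes separated with lower values and 22.1% in either direction. The 4 were *SNHG3*, *SNHG4* (log2 fold change -0.37, adjusted p = 0.0592), *SNHG17* (-0.32, adjusted p = 0.0784) and *SNHG19* (-0.30, adjusted p = 0.0686), the last 3 chosen after their values were seen. *SNHG29*, at 320.3 CPM in control ATII CM the most abundant of the list, was at 0.058 with overlapping groups (adjusted p = 0.479). The list had a median of -0.063. Over the 27 noncoding hosts tested, 3 were DEGs, all lower in 4-OHT ATII CM.

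**Figure D4:**
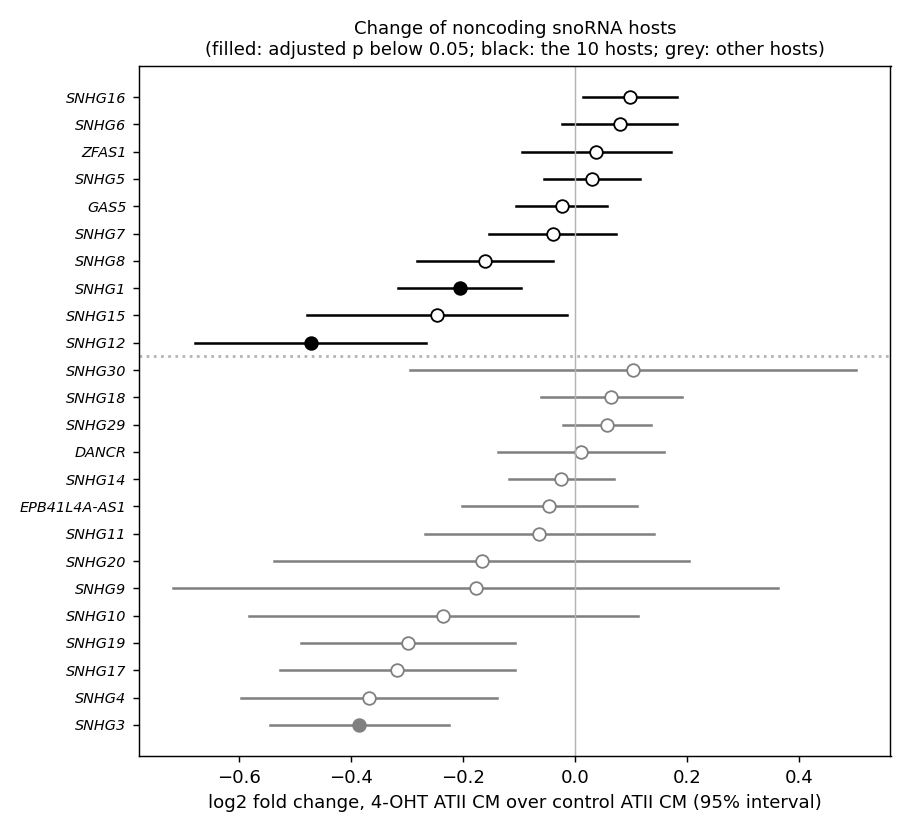
Log2 fold change of the 10 hosts (black) and of the 14 other noncoding hosts with a mean of at least 1 CPM (grey), with 95% intervals from the edgeR fit and filled circles for DEGs. *SNHG12*, *SNHG1* and *SNHG3* are the filled ones, all left of 0, and *SNHG5*, *GAS5* and *ZFAS1* lie near 0.

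Protein-coding hosts of snoRNAs were mostly ribosomal protein and translation factor genes. Of 47 tested, 1 was an upregulated DEG, 7 were downregulated DEGs, and the median log2 fold change was -0.023. Over all genes 5.72% were DEGs and 2.76% downregulated ones. The upregulated one was *TPT1*, which encodes an abundant growth-related protein with a TOP start, at 1405 ± 17.46 CPM with control ATII CM against 1582 ± 36.09 CPM with 4-OHT ATII CM (SD, n = 3 each, log2 fold change 0.17, adjusted p = 0.00110 from edgeR). Among those that fell were *NCL* (nucleolin, a nucleolar protein, -0.12), *DKC1* (the pseudouridine synthase of H/ACA particles, -0.15), *TAF1D* (an RNA polymerase I factor, -0.18), *SF3B3* (a splicing factor, -0.15) and *HSPA9* (a mitochondrial chaperone, -0.12), with adjusted p values from 0.0281 to 0.0383. The other 2 were *EIF4A1* (a translation initiation helicase, -0.43, adjusted p = 0.0433, at 8.077 CPM in control ATII CM) and *RPS2* (a ribosomal protein, -0.095, adjusted p = 0.0453), named after their values were seen. The count of *EIF4A1* is uncertain, since a readthrough gene, *SENP3-EIF4A1*, overlaps it on the same strand. The number of DEGs in this list was 1 to 12 when single libraries were left out, and *TPT1* was the one that held in all 15 alternatives. Among 16 other tested genes with TOP messenger RNAs, *EEF1A1* (translation elongation factor, 0.11) rose, and *HNRNPA1* (an RNA-binding protein, -0.16) and *VIM* (vimentin, -0.10) fell, around a list median of 0.0092. With a library left out, *VIM* stayed a DEG in 2 of 6 cases, *EEF1A1* in 5 and *HNRNPA1* in 6.

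Among the proteins that build snoRNA particles, all 8 core proteins had values below 0, with a median of -0.11, and 2 were DEGs, *DKC1* and *SNU13* (the protein that first binds C/D snoRNAs, -0.14, adjusted p = 0.0480). Of 9 assembly factors tested, *RUVBL2* (an ATPase of the assembly chaperone, -0.19, adjusted p = 0.0175) and *NOLC1* (a nucleolar chaperone, -0.13, adjusted p = 0.0406) were downregulated DEGs, and 8 of the 9 had values below 0. Beside both lists, 9630 of all 19072 genes had values below 0, 5.72% were DEGs and 2.76% were lower DEGs. *DKC1* was also counted among the protein-coding hosts, so the lists are not separate. *DKC1*, *SNU13* and *NOLC1* were not DEGs with DESeq2, and with 1 library left out each stayed a DEG in 1 of 6 cases, *RUVBL2* in 3 of 6.

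Genes of decay, of translation control and of growth were set beside the hosts. Of all genes tested, 5.72% were DEGs by edgeR, a share to hold beside each list here. None of the 14 genes of nonsense-mediated decay was a DEG with edgeR, DESeq2 or limma-voom. By edgeR 3 of them had an unadjusted p below 0.05, and the median was -0.013. The share of all genes at that unadjusted cut was not computed. Of 6 stress messenger RNAs that decay also removes, *GADD45A* was a DEG (-0.15, adjusted p = 0.0377), in 2 of 6 cases with a library left out. Among 15 genes of mTORC1 signaling and TOP control, *SESN3*, for a sestrin that restrains mTORC1, rose from 32.44 ± 0.888 to 40.49 ± 1.015 CPM (SD, n = 3 each, log2 fold change 0.32, edgeR adjusted p = 0.000717). *MYC*, a transcription factor that drives ribosome production, fell from 37.12 ± 0.7375 to 32.83 ± 0.6007 CPM (SD, n = 3 each, log2 fold change -0.18, edgeR adjusted p = 0.0379). It missed the threshold with DESeq2 (adjusted p = 0.102), with the replicate number as a block (adjusted p = 0.0621) and whichever single library was left out (adjusted p = 0.0631 to 0.126).

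Proliferation genes were lower in the same libraries as *SNHG12* and *SNHG1*. The list was chosen with earlier results of these data known. Of its 15 genes, 14 were downregulated DEGs, beside 2.76% of all genes tested. The median log2 fold change was -0.46, and the 6 with the lowest p were *MKI67* (-0.78), *TOP2A* (-0.56), *BUB1* (-0.60), *AURKB* (-0.69), *CCNB1* (-0.53) and *CDK1* (-0.48). The part of proliferation in the lower levels of the hosts was not tested. Of 10 genes linked to growth arrest, *TXNIP* (0.50), *CCNG2* (0.22) and *CDKN1B* (0.17) were upregulated DEGs and *GAS6* (-0.37) was a downregulated one. Of all genes tested, 5.72% were DEGs, and this list too was chosen with earlier results known. *CDKN1B* stayed a DEG in 1 of 6 cases with a library left out, and the other 3 in all 6. *GAS5*, the noncoding member of the growth arrest-specific series, had the change of -1.6% given above.

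Expression profiles closest to that of *GAS5* over the 6 libraries were sought among 9202 genes with a mean of at least 10 CPM, by the distance between log2 CPM values centred on each gene's mean. The 5 nearest were *DENND4B* (distance 0.0295), *CIAO3* (0.0342), *GGT7* (0.0361), *SEMA3A* (0.0366) and *CUL7* (0.0383), none of them a host on the lists. The groups of *GAS5* overlapped, some of so many genes must lie close to it, and shared control was not tested.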

How the data were processed

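PolyA RNA of 6 MRC5 libraries, 3 of control ATII CM and 3 of 4-OHT ATII CM, was sequenced by the authors, whose processing notes name Trim Galore for trimming, HISAT2 2.1.0 for alignment, featureCounts 1.6.5 for counting and GRCh38 as the genome build. The values they deposited are raw counts, and the annotation release and the handling of strand and shared reads are not given in the sources used here. Reads over exons of 2 genes may have been dropped. Counts of 45 identifiers listed on 2 lines were added up. The length column equals the merged exons of each line.

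Names came from GENCODE release 44 (58207 of 58676 identifiers). Genes with at least 10 counts in all were tested with edgeR 4.0.16 (R 4.3.3), TMM normalization, group as the only term and Benjamini-Hochberg adjustment at 0.05. Standard errors were the size of each fold change divided by the root of its F value, and the 95% intervals built on them cover the spread between libraries. The variation between replicates had a square root of common dispersion of 4.36%. DESeq2 1.42.0 and limma 3.58.1 were run as alternatives. Copies were sought with minimap2 2.31-r1302. Small RNA positions came from RefSeq (GRCh38.p14). Members, lists and the naming rule were chosen with earlier results of these data known. Named were all 10 hosts, up to 6 DEGs of each list by p, genes at a host's start (within 1000 bases) or on its exons (1 of these is not reported here), snoRNAs with at least 10 counts, and the 5 profiles nearest to *GAS5*. No replicates agreed within sampling noise (chi-square per degree of freedom 2.12 to 6.03).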

Additional observations from a re-analysis of the deposited data

How the results depend on the processing

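Over 15 alternatives and 44 named genes, 568 of 654 log2 fold changes kept their direction and their side of the threshold, 76 lost the call, 3 gained it (all *ZNFX1*) and 7 changed sign, each when 1 library was left out and none of them a DEG. Over these single-library omissions, the log2 fold change ranged from -0.0448 to 0.00421 for *GAS5*, from -0.0133 to 0.0543 for *SNHG5*, from -0.00583 to 0.110 for *ZFAS1*, from -0.0108 to 0.0528 for *TRNAU1AP* and from -0.0672 to 1.04 for ENSG00000267546. The number of DEGs over all genes then ranged from 533 to 1530, that of the 10 hosts from 1 to 2, that of other noncoding hosts from 1 to 2 and that of protein-coding hosts from 1 to 12. DESeq2 called 1 of the 10 hosts. The number of other noncoding hosts called was 2 with limma-voom, 2 with at least 1 CPM in 3 libraries, 3 with at least 1 count over the libraries and 3 with each library's trend on exon length removed. In the last 2 settings 1601 and 1267 genes were DEGs in all, and the cause was not tested. Among the single-library omissions, the highest number over all genes came without replicate 2 of control ATII CM (1530), and the lowest without replicate 3 of control ATII CM (663) and without replicates 2 (533) and 3 (615) of 4-OHT ATII CM.

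Same-numbered libraries showed no shared deviation from their group means, with correlations of -0.0145, -0.104 and -0.0931. Those of differently numbered libraries of the 2 groups ran from -0.0645 to 0.161. The labels do not say whether libraries were made in pairs, and these values cannot show it. With the replicate number as a block, 985 genes, 2 of the 10 hosts and 5 protein-coding hosts were DEGs. Depth limits *SNHG12* and *SNHG15*, with 1140 and 977 counts over all libraries, more than *GAS5* and *SNHG5*.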
